A study of Rattus norvegicus with 12 samples.

Results

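The genes described are those of the mitochondrial ribosomal proteins, taken as every protein-coding gene of the count table whose symbol starts with Mrpl or Mrps followed by a digit. The rule found 76 of 34599 genes, 46 named for the large (Mrpl) and 30 for the small (Mrps) subunit, spread over 19 chromosomes. RNA was sequenced from the left ventricle of 12 male SD rats 1 day after surgery, with 4 rats per group (Sham, MI and iCarP+/Light+). Sham rats had their chest opened without ligation, and MI rats had the left anterior descending coronary artery ligated and received no treatment. iCarP+/Light+ rats had the same ligation, then an injection of Chlorella, an alga that gives off oxygen in light, a glued-on illuminative cardiac patch (iCarP) and light through it. Alga, patch, glue and light came together in these rats, so their parts cannot be told apart, and RNA of unlit patches was not analysed here. Neither the age of the rats nor whether all rats were operated on together is in the labels, and the labels speak of infarct regions as the tissue, without saying which region was taken from Sham hearts.

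The mitochondrial ribosome translates the few messages of the mitochondrial genome, all of them for subunits of the oxidative phosphorylation complexes. Its RNAs come from the mitochondrial genome, but its proteins are encoded in the nucleus, made on cytosolic ribosomes and imported, and many of them have a counterpart in bacteria while others are found only in mitochondria. Heart muscle holds many mitochondria, and inherited defects of MRPL3, MRPL44 and MRPS22 are known in people with cardiomyopathy.

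Total counts ran from 14064414 to 17136958 per rat, so 3 counts, the least taken as detection, stood for 0.175 to 0.213 CPM (counts scaled to a common library total). Such floors cover counting error only, and no molecular identifiers are described. Genes of the mitochondrial genome took 22.8 to 28.9% of the counts in Sham rats, 8.52 to 11.5% in MI rats and 7.14 to 14.2% in iCarP+/Light+ rats. CPM below are scaled by TMM, a method that corrects for such shifts in composition, and its factors were 0.784 to 0.856, 1.15 to 1.26 and 0.960 to 1.05 in the respective groups. A gene is called lower or higher where edgeR's quasi-likelihood test gave an adjusted p below 0.05 (Benjamini-Hochberg over 15101 genes tested). Of the 76 members, 73 had enough counts to be tested, 44 large and 29 small. Mrps21l, Mrpl36 and Mrpl53 were not: Mrpl53 had no count in any rat, Mrpl36 had a single count in 1 rat, and Mrps21l had between 0 and 2 counts per rat.

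Scaled by TMM, the mean levels of both subunits were lower in MI than in Sham hearts. The mean log2 CPM of the 73 members tested was 5.50 to 5.68 in the Sham rats, 4.69 to 5.08 in the MI rats and 4.52 to 4.84 in the iCarP+/Light+ rats. Every MI and every iCarP+/Light+ rat thus lay below every Sham rat, while the MI and iCarP+/Light+ ranges overlapped. The summed level of the members was 4431 ± 189 CPM in Sham rats, 2466 ± 362 CPM in MI rats and 2254 ± 223 CPM in iCarP+/Light+ rats (SD, n = 4 each). The members made up 0.338 to 0.396% of all counts in Sham rats, 0.275 to 0.342% in MI rats and 0.194 to 0.266% in iCarP+/Light+ rats, so that MI and Sham rats overlapped on this scale, which is not corrected for composition. Counted without the genes of the mitochondrial genome, their share was 0.459 to 0.513% in Sham rats, 0.306 to 0.378% in MI rats and 0.209 to 0.310% in iCarP+/Light+ rats, and MI and Sham rats no longer overlapped. Bulk tissue cannot separate fewer cells of a type from less RNA per cell, and this holds for all values given here.

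**Figure D1:**
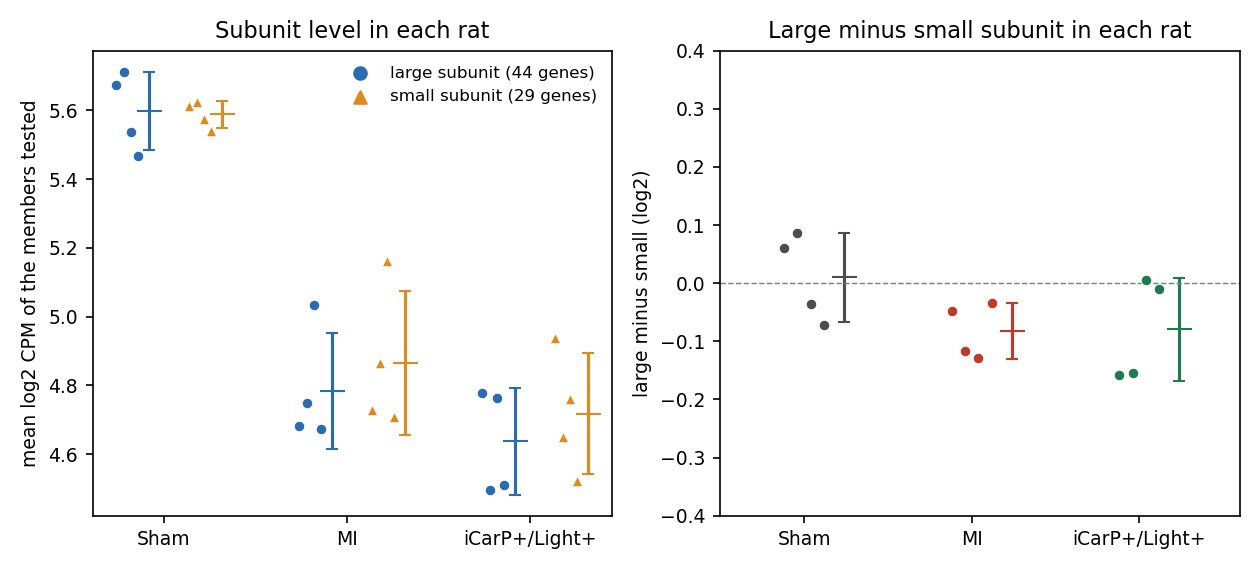
Left, mean log2 CPM of the large (circles) and small (triangles) subunit members tested in each rat, by group; right, the large subunit's mean minus the small subunit's in each rat, with lines at the mean and SD of 4 rats. Both subunits lie lower in all MI and iCarP+/Light+ rats than in any Sham rat, and the difference between subunits stays between -0.16 and 0.09.

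Markers of cell types moved with the same groups. Cardiomyocyte markers fell in MI in 11 of 12 genes, with a summed level of 49699 to 54047 CPM in Sham rats, 3657 to 7734 CPM in MI rats and 3102 to 8674 CPM in iCarP+/Light+ rats. Leukocyte markers rose in MI in 11 of 11 genes tested, with 311 to 455 CPM in Sham rats, 2964 to 4333 CPM in MI rats and 5915 to 13525 CPM in iCarP+/Light+ rats, and 8 of 11 were also called higher in iCarP+/Light+ than in MI. Endothelial markers were called lower in MI in 7 of 9 genes and fibroblast markers in 8 of 10, with 1 higher. Red blood cell markers were called lower in MI in 4 of 5 genes and higher in iCarP+/Light+ than in MI in 3. Of all genes tested, 33.6% were called lower and 30.2% higher in MI, and 11.6% higher in iCarP+/Light+ than in MI. By total counts alone, 3 endothelial markers were called lower and 2 higher in MI, 6 fibroblast markers lower and 1 higher, and 1 red blood cell marker lower. Cardiomyocyte markers then had 11 lower and 1 higher, where 18.4% of all genes were lower and 51% higher. In iCarP+/Light+ against MI, that scale gave 7 leukocyte markers higher and 1 lower, beside 7.97% and 18% of all genes. None of the matched markers was at 0 in any rat, and 11 of 12 leukocyte, 9 of 10 endothelial and 5 of 6 red blood cell markers listed were matched. The part of these shifts in the members' values was not tested. Myh6, the main myosin of the rat ventricle, stood at 12013 CPM in Sham and 453 CPM in MI hearts.

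Levels of single members within a heart can be compared per length. In Sham hearts the tested members ranged 185-fold in CPM per kb of gene length, from Mrpl30 at 1.48 to Mrpl33 at 273. Mrpl30 varied from 0.295 to 8.75 CPM among the Sham rats and overlaps Mitd1 on the opposite strand for 76963 bases. Mrpl33, a short protein of the large subunit, led the order, followed by Mrpl17 at 189 and Mrpl12 at 158 CPM per kb. Its place rests on an annotated length of 236 bases. Before division by length, Mrpl33 stood at 64.5 CPM in Sham, below Mrpl12 at 248 and Mrpl3 at 160 CPM. The highest small subunit members were Mrps16 at 102, Mrps34 at 70.4 and Mrps24 at 64.3 CPM per kb. The median member stood at 51.8 CPM per kb in the large and 45.4 in the small subunit. The large subunit made up 68.4% ± 0.775 of the summed level per kb in Sham rats, 67.3% ± 0.370 in MI rats and 67.5% ± 0.494 in iCarP+/Light+ rats (SD, n = 4 each), and these ranges overlapped.

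Called lower in MI than in Sham were 57 of the 73 members, or 78.1%, where 33.6% of all genes tested were called lower. Only Mrpl52 was called higher, or 1.37% of members, where 30.2% of all genes were. The median log2 fold change was -0.71 over the members and -0.06 over all genes, and 71 of 73 members had a negative value. A log2 fold change of -0.71 is 0.612 of the Sham level. In 50 members every MI rat lay below every Sham rat, as in 31.4% of all genes, and 25 of 73 members were called at a log2 fold change of -1 or lower, as were 20.8% of all genes. When libraries were scaled by total counts only, the median over all genes tested moved to 0.52 and that of the members to -0.13, so the members' distance from all genes was -0.65 under both scalings. On that scale 44 of 73 members had a negative value, and 30 were called lower and 9 higher, where 18.4% of all genes were called lower and 51% higher. Leaving out each rat in turn gave 49 to 61 members lower.

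By subunit, 35 of 44 large and 22 of 29 small members were called lower in MI than in Sham. The median log2 fold change was -0.96 in the large and -0.62 in the small subunit, and by total counts alone -0.38 and -0.04, where the median of all genes was 0.52. The middle of the large subunit's values ran from -1.14 to -0.44 (quartiles) and that of the small subunit's from -0.94 to -0.37, so they overlapped broadly. Within each rat, the large subunit's mean log2 CPM minus the small subunit's was -0.07 to 0.09 in Sham rats, -0.13 to -0.03 in MI rats and -0.16 to 0.00 in iCarP+/Light+ rats. The 3 ranges overlapped, and members are not replicates, so the subunits were not tested against each other. Symbols do not always give a protein's place, since Mrps18a and Mrps30 are built into the large subunit and Mrps36 is a component of the 2-oxoglutarate dehydrogenase complex. Sorted by place, the medians were -0.92 and -0.62. Members with a bacterial counterpart had a median of -0.69 (44 tested, 32 called lower) and those for which none is listed had -0.79 (29 tested, 25 called lower).

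**Figure D2:**
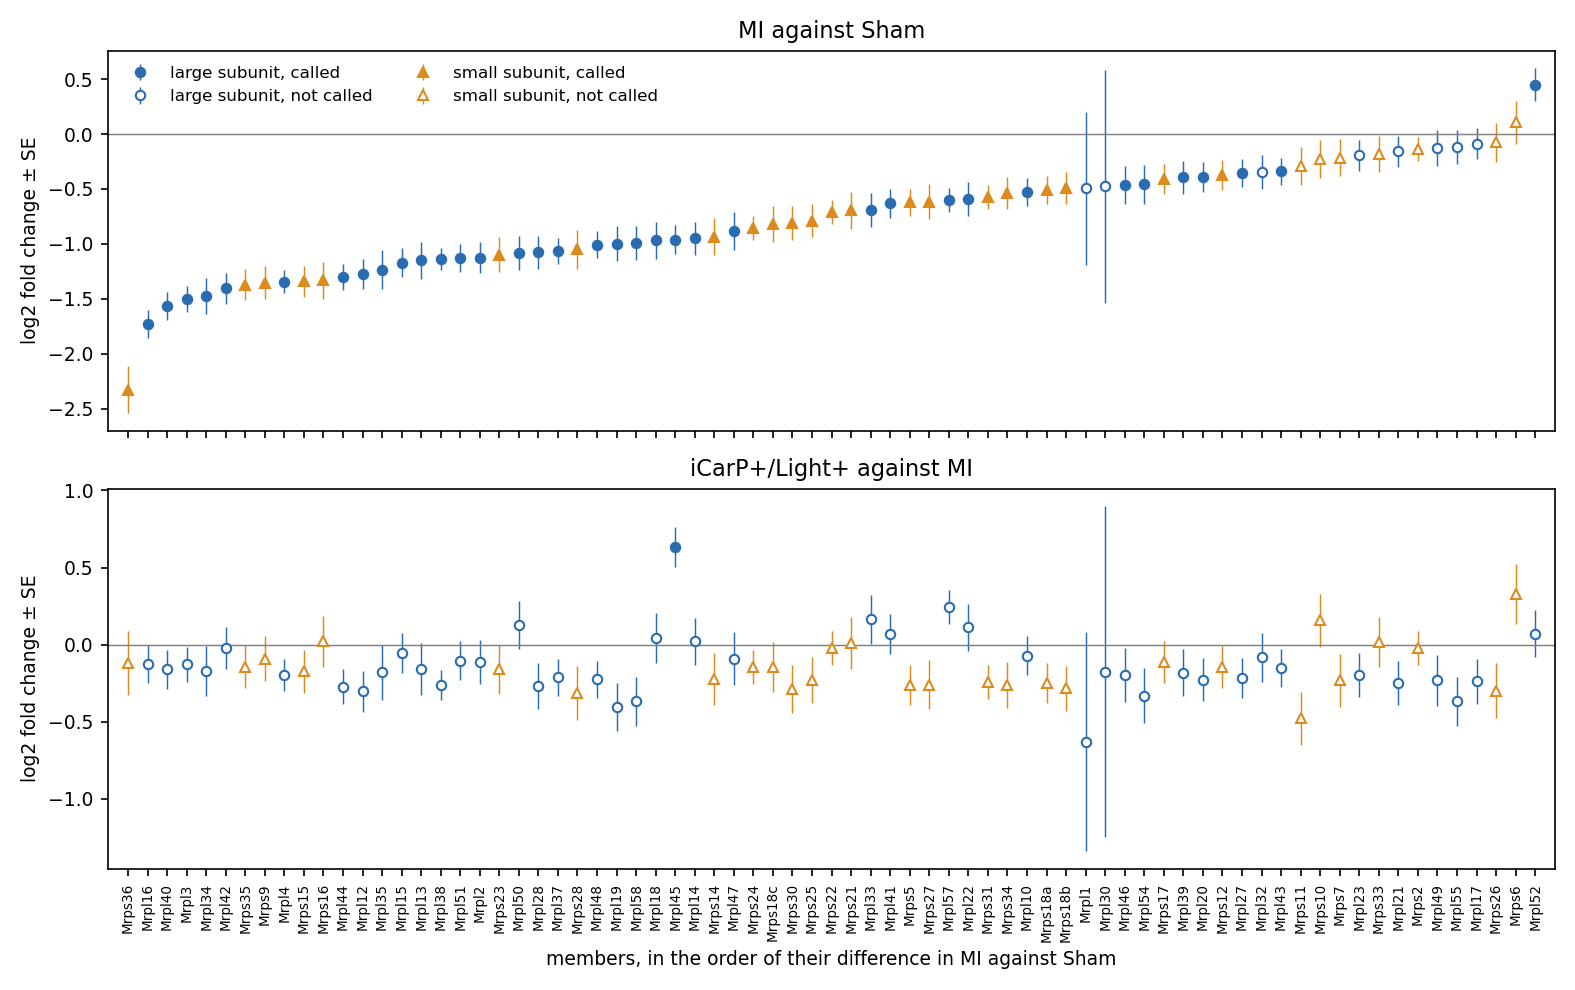
Log2 fold change with its SE for each of the 73 members tested, in MI against Sham (top) and iCarP+/Light+ against MI (bottom), both in the order of the top panel; circles are large and triangles small subunit members, and filled symbols were called. Most members lie below 0 in the top panel, with Mrps36 lowest and Mrpl52 highest, and only Mrpl45 is filled in the bottom panel.

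Mrpl3 and Mrpl16, proteins of the large subunit that bind its RNA, were among the 5 members with the lowest log2 fold changes. Mrpl16 (ENSRNOG00000021005, chr1:228142778-228147579 in rn6) had 76.5, 82.4, 82.7 and 83.7 CPM in the Sham rats and 22.0, 22.2, 24.1 and 29.6 CPM in the MI rats. The iCarP+/Light+ rats had 19.1, 21.6, 22.2 and 26.9 CPM. The Sham values were tightly grouped and far above both infarct groups, which overlapped each other. The log2 fold change of Mrpl16 was -1.73 ± 0.13 (SE) in MI against Sham (adjusted p = 2.09e-07, edgeR) and -0.12 ± 0.12 in iCarP+/Light+ against MI (adjusted p = 0.595). Mrpl3 had 148 to 170 CPM in Sham rats, 48.1 to 65.8 in MI rats and 44.8 to 58.4 in iCarP+/Light+ rats, a log2 fold change of -1.50 ± 0.12 in MI against Sham (adjusted p = 3.42e-07, edgeR).

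Mrps36 (ENSRNOG00000061213, chr2:30739855-30748428), the member that belongs to a citric acid cycle enzyme complex, had the lowest log2 fold change of all members. It had 125, 142, 147 and 157 CPM in the Sham rats, 18.9, 26.5, 32.1 and 36.2 CPM in the MI rats and 19.4, 23.6, 24.8 and 36.8 CPM in the iCarP+/Light+ rats. Both infarct groups lay far below Sham and overlapped each other. Its log2 fold change was -2.33 ± 0.22 in MI against Sham (adjusted p = 1.31e-06, edgeR), where the median of the nuclear genes for oxidative phosphorylation subunits was -1.94.

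Mrpl40 and Mrpl34 completed the 5 lowest, at -1.57 ± 0.13 and -1.47 ± 0.16. Mrpl34, a small protein with a bacterial counterpart, had 45.5, 45.8, 62.2 and 65.7 CPM in the Sham rats and 16.7, 17, 21 and 24.3 CPM in the MI rats. No MI rat reached the lowest Sham rat, though the Sham rats themselves fell into a higher and a lower pair. Sham 1 and Sham 2 were higher than Sham 3 and Sham 5 in Mrpl34, as in Mrpl33 and Mrpl27.

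Mrpl12, a protein of the flexible stalk that also binds the mitochondrial RNA polymerase, was the third most abundant member per kb. It had 210, 245, 256 and 279 CPM in Sham rats, 89.0, 95.9, 105 and 119 CPM in MI rats and 71.5, 76.2, 84.3 and 99.0 CPM in iCarP+/Light+ rats. The infarct groups were separate from Sham and overlapped each other. Its log2 fold change was -1.28 ± 0.14 in MI against Sham (adjusted p = 3.76e-06, edgeR). Mrpl44, an RNase III-like protein of the large subunit, gave -1.30 ± 0.11, with 51.1 to 54.0 CPM in Sham and 17.5 to 23.5 CPM in MI.

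Of the proteins placed in the small subunit, which leaves out Mrps36, Mrps16 was the lowest of those described by role, at -1.33 ± 0.17 (adjusted p = 1.51e-05, edgeR), with 55.9 to 70.9 CPM in Sham and 19.9 to 32.3 CPM in MI. Mrps24 gave -0.85 ± 0.11 and Mrps22 -0.71 ± 0.11, and in both every MI rat lay below every Sham rat. Mrps34 gave -0.54 ± 0.15 and, by name only in the small subunit, Mrps30 -0.81 ± 0.15 and Mrps18a -0.51 ± 0.13. With total counts alone Mrps34 and Mrps18a turned to 0.03 and 0.06, Mrps22 gave -0.13 and Mrps30 -0.23, and none of the 4 was called, while Mrps24 gave -0.28. Mrps18a lies over Rsph9 on the opposite strand for 6709 bases, and whether reads were counted by strand is not given in the sources used here.

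Mrpl17, the second most abundant member per kb, was among the 15 members not called. It had 171, 172, 176 and 187 CPM in Sham rats, 128, 159, 163 and 215 CPM in MI rats and 126, 128, 148 and 161 CPM in iCarP+/Light+ rats. The MI rats spread on both sides of the Sham range, with MI 4 highest. Its log2 fold change was -0.09 ± 0.14 in MI against Sham (adjusted p = 0.621, edgeR), and by total counts alone it was 0.48 and called higher (adjusted p = 0.00888). The other members not called ranged from -0.49 in Mrpl1 to 0.11 in Mrps6. Mrpl1 and Mrpl30 had SEs of 0.70 and 1.06, against a median SE of 0.15 over the members, so little can be said of either.

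Mrpl52 (ENSRNOG00000039297, chr15:33069382-33072777), a large subunit protein found only in mitochondria, was the only member called higher in MI. It had 27.9, 32.7, 42.2 and 47.2 CPM in Sham rats, 44.1, 50.1, 54.7 and 56.1 CPM in MI rats and 49.1, 52.2, 56.8 and 57.1 CPM in iCarP+/Light+ rats. A single MI rat lay within the Sham range, and no iCarP+/Light+ rat did. The log2 fold change was 0.45 ± 0.15 in MI against Sham (adjusted p = 0.0192, edgeR), and the two-sided exact permutation p was 0.0571. The call was lost without Sham 3 (0.34) or without Sham 5 (0.39), with adjusted p between 0.00481 and 0.0583 over all rats left out in turn.

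The called members with the smallest decreases were Mrpl43 at -0.34 ± 0.12, Mrpl27 at -0.35 ± 0.13 and Mrps12, of the decoding site, at -0.37 ± 0.14. With total counts alone they turned to 0.23, 0.22 and 0.20. MI 4 lay inside the Sham range in each of the 3, at 46.7, 57.8 and 34.7 CPM. Among the MI rats, MI 4 had the highest value in 64 of the 73 members, and 61 members were called lower without it. The calls of all 3 were lost without MI 1, MI 3, MI 5, iCarP+/Light+ 5, Sham 1 or Sham 2, that of Mrpl43 also without Sham 3 and that of Mrps12 also without Sham 5, and DESeq2 called none of them. Of 10 other settings, 4 called Mrpl43, 4 called Mrpl27 and 2 called Mrps12. Mrpl43 shares 48 bases with Twnk on the opposite strand.

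**Figure D3:**
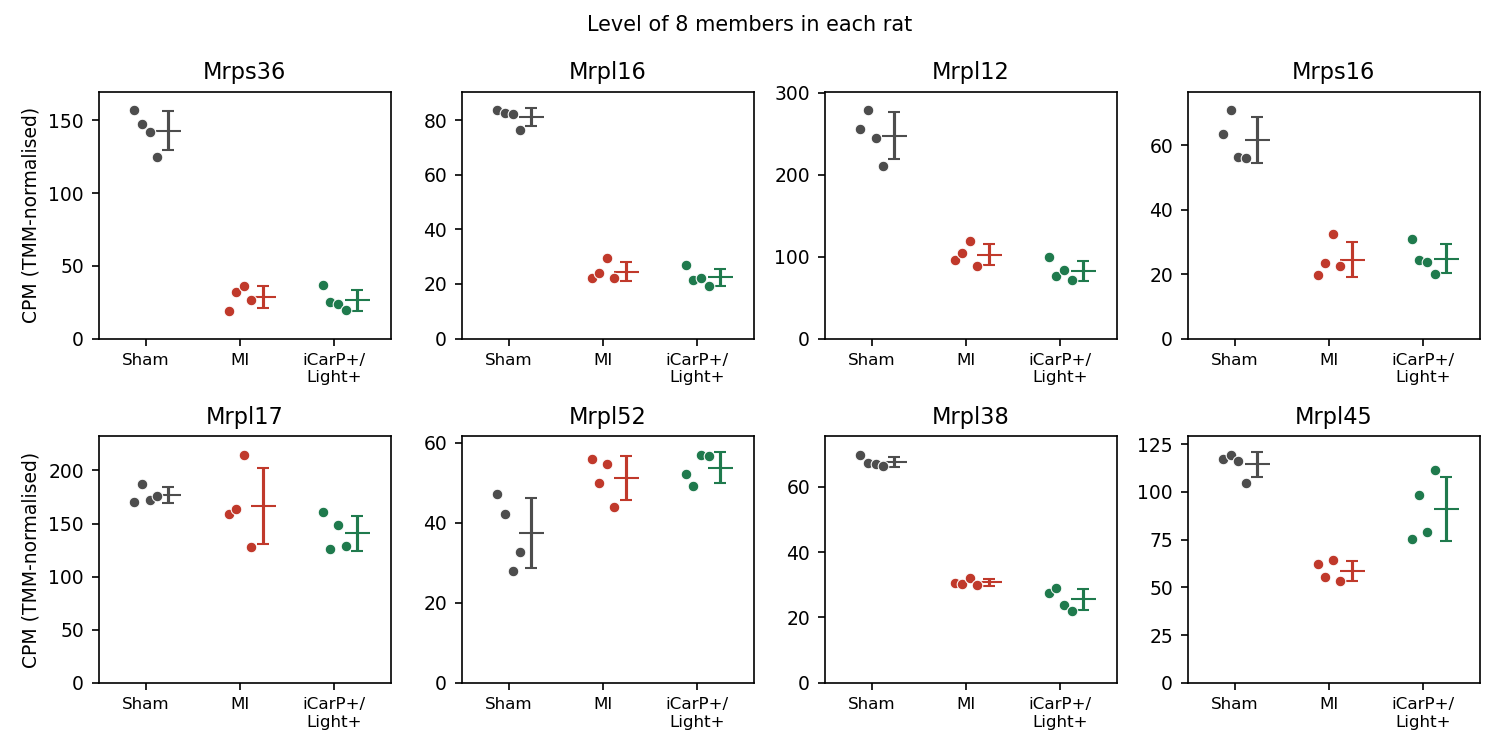
TMM-normalised CPM of 8 members in each rat, with lines at the mean and SD of 4 rats; each vertical axis starts at 0. Mrps36, Mrpl16, Mrpl12 and Mrps16 separate Sham from both infarct groups, Mrpl17 and Mrpl52 do not, and Mrpl45 is the member in which iCarP+/Light+ rats lie above all MI rats. Of all genes tested, 12.1% had all iCarP+/Light+ rats above all MI rats.

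Few members were called between the infarct groups. In iCarP+/Light+ against MI, 0 members were called lower, where 2.01% of all genes were, and 1 higher, where 11.6% of all genes were (edgeR). At an unadjusted p below 0.05 there were 7 members lower and 1 higher, where 7.61% of all genes were lower and 18% higher. DESeq2 called 2 members lower and 1 higher, where it called 5.05% of all genes lower and 12.2% higher. The median log2 fold change was -0.17 over the members, -0.17 in the large and -0.16 in the small subunit, against 0.01 over all genes. Without MI 4 the members' median was -0.07, with 49 members negative. Values were negative in 59 of 73 members with all rats, and the lowest and highest were -0.63 (Mrpl1) and 0.63 (Mrpl45). Scaled by total counts only, the median over all genes tested moved to -0.25 and that of the members to -0.43, a distance of -0.18 from all genes where TMM gave -0.19, and 32 members were called lower. On that scale 18% of all genes were called lower and 7.97% higher. The means of the 73 members in single rats overlapped between the groups.

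Mrpl45 (ENSRNOG00000010540, chr10:85257876-85269806), which lies at the exit of the large subunit's tunnel and ties it to the inner membrane, was the member called higher. It had 105, 116, 117 and 120 CPM in Sham rats, 53.2, 55.2, 62.2 and 64.2 CPM in MI rats and 75.4, 79.1, 98.1 and 111 CPM in iCarP+/Light+ rats. All iCarP+/Light+ rats lay above all MI rats, and 1 of them inside the Sham range. Such a separation upward from MI was seen in 1 of the 73 members and in 12.1% of all genes tested. The log2 fold change was 0.63 ± 0.13 in iCarP+/Light+ against MI (adjusted p = 0.00491, edgeR), and the exact permutation p of 0.0286 is the smallest that 4 rats against 4 can give (0.0699 after adjustment over 44 comparisons). By the same edgeR test it was -0.96 ± 0.13 in MI against Sham (adjusted p = 2.69e-05) and -0.33 ± 0.13 in iCarP+/Light+ against Sham (adjusted p = 0.0366), where the groups overlapped. This last call was lost without Sham 1, 2 or 3 or iCarP+/Light+ 1 or 4, and by total counts only the value was -0.03. With each of the 12 rats left out in turn, the adjusted p in iCarP+/Light+ against MI (edgeR) stayed between 0.00173 and 0.0311. By total counts alone that value was 0.36 (adjusted p = 0.0363, edgeR).

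RefSeq promoters on the GRCr8 build, 250 bases before to 50 bases after the start, were matched to 60 of the 76 members by symbol or gene ID. Shown are those with a motif match among the 5 lowest and 4 highest called members of at least 5 CPM in MI against Sham, from the lowest up. The promoter of Mrpl45 was added after its values were seen. Each is given by the 250 bases before its start, with capitals at the match. They lie at chr16:18186197-18186446 on the plus strand (Mrpl34), chr10:80092095-80092344 on the plus strand (Mrpl27), chr15:31852686-31852935 on the plus strand (Mrpl52) and chr10:82804789-82805038 on the plus strand (Mrpl45).
Mrpl34: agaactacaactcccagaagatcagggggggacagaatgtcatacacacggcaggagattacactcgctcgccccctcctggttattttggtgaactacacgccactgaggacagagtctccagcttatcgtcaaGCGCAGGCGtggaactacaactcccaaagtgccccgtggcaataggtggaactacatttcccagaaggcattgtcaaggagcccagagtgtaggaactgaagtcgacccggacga
Mrpl27: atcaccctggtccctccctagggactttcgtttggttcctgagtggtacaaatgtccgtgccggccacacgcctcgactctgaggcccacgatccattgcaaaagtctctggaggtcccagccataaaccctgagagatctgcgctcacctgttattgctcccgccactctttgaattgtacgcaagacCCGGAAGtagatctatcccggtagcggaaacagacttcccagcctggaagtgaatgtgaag
Mrpl52: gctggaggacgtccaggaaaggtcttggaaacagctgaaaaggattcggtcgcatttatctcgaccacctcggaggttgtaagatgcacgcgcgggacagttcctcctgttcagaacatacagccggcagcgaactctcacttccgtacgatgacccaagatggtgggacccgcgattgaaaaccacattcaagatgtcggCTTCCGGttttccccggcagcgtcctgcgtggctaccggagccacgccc
Mrpl45: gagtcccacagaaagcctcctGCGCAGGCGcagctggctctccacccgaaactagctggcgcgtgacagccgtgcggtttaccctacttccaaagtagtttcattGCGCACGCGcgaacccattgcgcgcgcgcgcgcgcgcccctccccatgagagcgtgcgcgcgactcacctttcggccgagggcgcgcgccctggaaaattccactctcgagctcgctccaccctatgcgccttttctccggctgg
Mrpl34 held the NRF1 motif from base -115, Mrpl45 held it from bases -229 and -145, Mrpl52 held the ETS motif from base -49, and Mrpl27 held it from base -61. The motifs were searched on both strands in the bases before the start, and none of the 4 motifs contains another. The NRF1 motif, CGCNTGCGC, was in 15% of the members' promoters and 5.09% of all 33469 promoters. The ETS motif, CCGGAAG, to which Gabpa binds, was in 21.7% and 7.27%, the YY1 motif, AANATGGC, in 10% and 4.23%, and the E-box CACGTG, to which Myc binds, in 6.67% and 5.59%. The median GC content was 54.4% in the members' promoters and 51.2% in all. Members with the NRF1 motif had a median log2 fold change of -0.59 in MI against Sham (9 members) and those without it -0.69 (49 members). A match describes letters only.

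Next by p-value were Mrps11 at -0.48 ± 0.17 (adjusted p = 0.0919, edgeR) and Mrpl38 at -0.26 ± 0.10 (adjusted p = 0.104). Mrpl38 had 30.0, 30.2, 30.5 and 32.2 CPM in MI rats and 21.9, 23.9, 27.5 and 29.0 CPM in iCarP+/Light+ rats, which did not overlap. Such a separation downward from MI was seen in 2 of the 73 members and in 4.37% of all genes tested. Mrpl38 was called with DESeq2's size factors, with DESeq2, with a filter of 10 counts in every rat and by total counts only, and Mrps11 was called with DESeq2 and by total counts only. Mrps11 and Mrpl46 lie head to head on chromosome 1 with 71 bases between them, and in MI against Sham they gave -0.29 and -0.47, of which only Mrpl46 was called.

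Against Sham, iCarP+/Light+ rats had 63 members called lower, where 33% of all genes were, and 1 higher, where 33.5% of all genes were (edgeR). The median log2 fold change was -0.88, with -0.94 in the large and -0.82 in the small subunit. By total counts alone these were -0.56, -0.63 and -0.50, with 45 members called lower and 2 higher, where 24.1% of all genes were called lower and 44.1% higher. The 57 members called lower in MI were all called lower here as well, a count for 2 comparisons that share the Sham rats. In 61 members every iCarP+/Light+ rat lay below every Sham rat, as in 31.6% of all genes.

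In a list of mitoribosomal proteins that carry no Mrp symbol, with the docking protein Oxa1l added, 4 of 6 tested were called lower in MI than in Sham rats, with a median of -0.39. Under TMM 33.6% of all genes were called lower. Scaled by total counts, the sign of the list's median turned, to 0.18, where the median of all genes was 0.52. Its distance from all genes was -0.33 under TMM and -0.34 by total counts. On the latter scale 1 was called lower and 1 higher, beside 18.4% and 51% of all genes. With DESeq2's size factors 2 were called lower, where 31.1% of all genes were. Oxa1l, the insertase of the inner membrane at which the ribosome docks, was lowest at -1.56 ± 0.09 (adjusted p = 7.05e-08, edgeR). Aurkaip1, a small subunit protein, was the one called in iCarP+/Light+ against MI, at 0.39 ± 0.12 (adjusted p = 0.0415, edgeR), and it was not called with DESeq2's size factors (0.34) or total counts alone (0.13).

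The mitochondrial translation factors had a median of -1.19 in MI against Sham, with 11 of 13 called lower and 1 higher. Scaled by total counts, 8 were lower, 2 higher and the median was -0.60, where the median of all genes was 0.52. Of all genes, 33.6% were lower and 30.2% higher under TMM, and 18.4% and 51% by total counts. The factors' distance from all genes was -1.13 under TMM and -1.12 by total counts. Taco1, an activator of the translation of Cox1, gave the lowest log2 fold change, -1.86 ± 0.19, followed by Gfm2, which works in ribosome recycling, at -1.70 ± 0.14, and the release factor homologue Mtrf1 at -1.36 ± 0.15. The gene called higher was the initiation factor Mtif3, at 0.49 ± 0.14 (adjusted p = 0.00833, edgeR). Of the mitochondrial aminoacyl-tRNA synthetases and amidotransferase genes, 15 of 18 were called lower and none higher, with a median of -0.97. DESeq2's size factors gave 1 higher, and total counts alone gave 9 lower and 2 higher, with a median of -0.39. The distance of this list from all genes was -0.91 both under TMM and by total counts. Qrsl1 and Gatb, subunits of the amidotransferase that makes glutaminyl-tRNA, gave -1.91 ± 0.21 and -1.45 ± 0.15, and the leucine enzyme Lars2 gave -1.21 ± 0.11.

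A list of assembly factors and enzymes that modify the ribosomal RNA, with Lrpprc included, had a median of -0.39. Of its genes, 14 of 25 were called lower and 2 higher, where 33.6% and 30.2% of all genes were. Mettl15, a methyltransferase of the small subunit's RNA, gave -2.0 ± 0.16. Rbfa, which acts in small subunit maturation, gave -1.42 ± 0.14, and Lrpprc, which stabilises mitochondrial messages, gave -1.20 ± 0.12. The GTPase Noa1 gave 0.64 ± 0.13 (adjusted p = 0.00059, edgeR), in the opposite direction. With total counts alone the list's median turned to 0.19, where the median of all genes was 0.52. Its distance from all genes was -0.33 under both scalings. Scaled by total counts, 3 genes were called lower and 11 higher, where 18.4% of all genes were called lower and 51% higher.

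Of the nuclear oxidative phosphorylation subunits, 78 of 81 tested were called lower, with a median of -1.94 (Ndufs1 of complex I at -2.60 ± 0.18), and all 13 protein genes of the mitochondrial genome were, with a median of -1.98. Cytosolic ribosomal protein genes went the other way, with 43 of 73 called higher, 1 lower and a median of 0.46 (Rpl3 at 1.59 ± 0.13). Under TMM 33.6% of all genes were called lower and 30.2% higher. Scaled by total counts, 66 were higher, 0 lower and the median was 1.03, where 51% of all genes were higher, with a median of 0.52. The list's distance from all genes was 0.52 under TMM and 0.51 by total counts. Many cytosolic ribosomal protein genes have near-identical processed copies in the genome, and how reads were shared among copies is not given in the sources used here. Within a rat, the difference between the means of 2 gene lists does not depend on how libraries are scaled. The members' mean log2 CPM minus that of the cytosolic ribosomal proteins was -2.19 ± 0.066 in Sham rats, -3.43 ± 0.053 in MI rats and -3.45 ± 0.049 in iCarP+/Light+ rats (SD, n = 4 each). The Sham rats ran from -2.26 to -2.11 and the MI rats from -3.47 to -3.35. The members' mean minus that of the oxidative phosphorylation subunits was -2.68 ± 0.012 in Sham rats, -1.54 ± 0.198 in MI rats and -1.64 ± 0.253 in iCarP+/Light+ rats. On both measures the infarct groups were separate from Sham and overlapped each other.

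**Figure D4:**
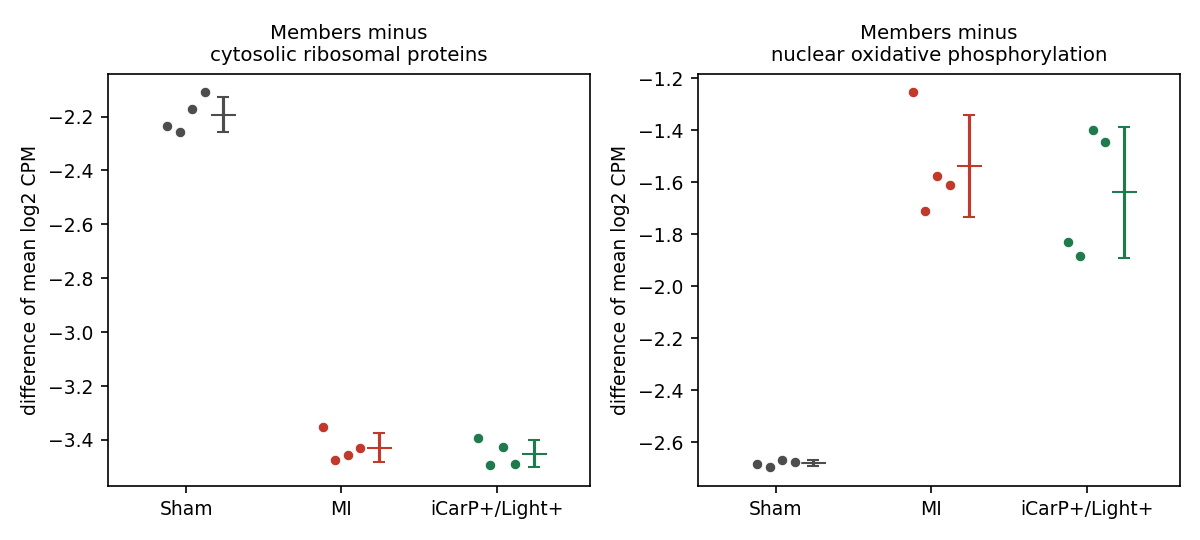
Mean log2 CPM of the members tested minus that of the cytosolic ribosomal protein genes (left) and of the nuclear oxidative phosphorylation subunits (right) in each rat, with lines at the mean and SD of 4 rats. Both infarct groups are separate from Sham, below it on the left and above it on the right.

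**Figure D5:**
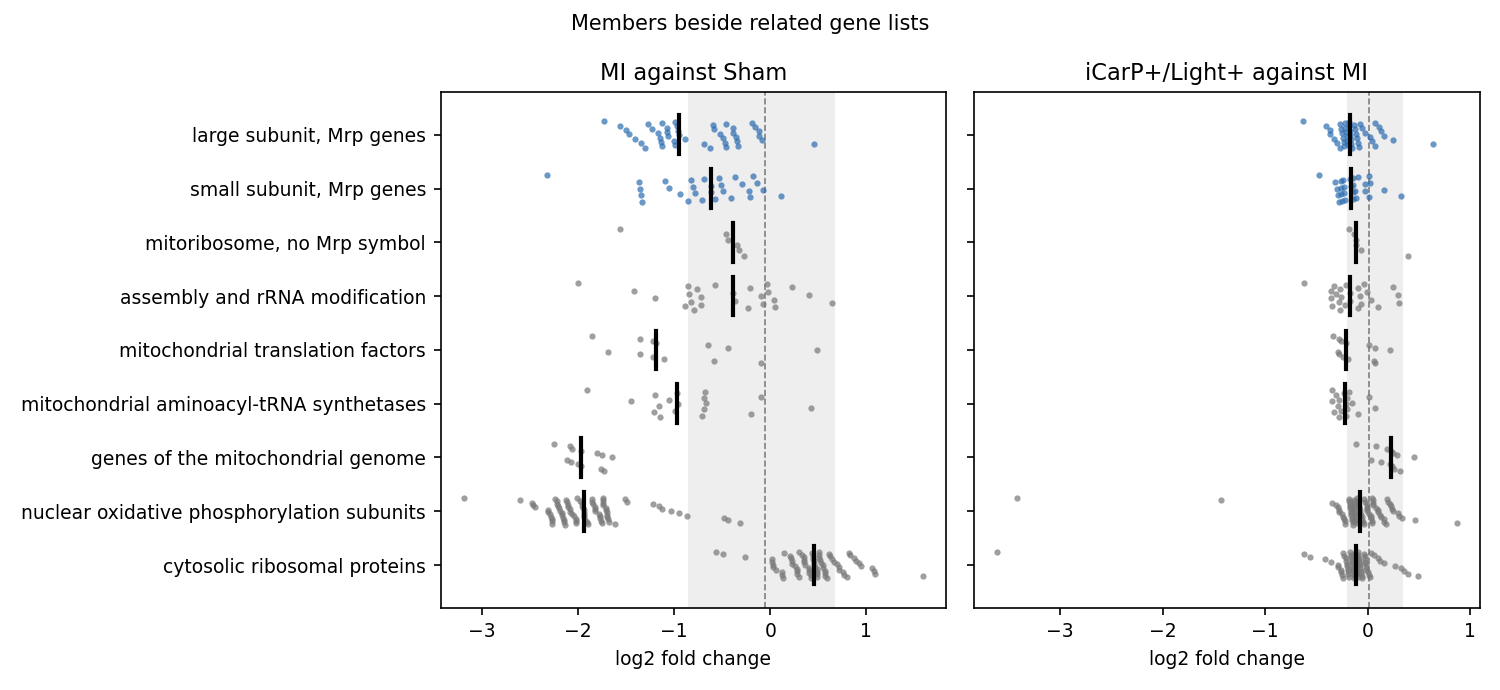
Log2 fold changes of single genes (points) and list medians (bars) in MI against Sham (left) and iCarP+/Light+ against MI (right); the grey band spans the middle 50% of all genes tested and the dashed line is their median. In MI against Sham the lists run from medians near -1.98 for genes of the mitochondrial genome to 0.46 for cytosolic ribosomal proteins, and in iCarP+/Light+ against MI all list medians lie between -0.22 and 0.23.

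Of 15 regulators of mitochondrial gene expression, 7 were called lower and 4 higher in MI against Sham (46.7% and 26.7%, beside 33.6% and 30.2% of all genes, edgeR). By total counts alone 7 were lower and 8 higher, where 18.4% and 51% of all genes were. Ppargc1a, the coactivator PGC-1alpha, had 24.1 CPM in Sham and 3.12 CPM in MI, a log2 fold change of -2.95 ± 0.40 (adjusted p = 3.17e-05, edgeR). Polrmt, the mitochondrial RNA polymerase, gave -1.19 ± 0.12. Nrf1, a transcription factor of many nuclear genes for mitochondria, gave 0.60 ± 0.14 (adjusted p = 0.00165, edgeR) and Myc 3.94 ± 0.11. Gabpa gave 0.11 ± 0.09 and Tfam, which packs mitochondrial DNA, -0.23 ± 0.13, neither called, and by total counts only they gave 0.70 and 0.35, both called higher. In iCarP+/Light+ against MI, Nrf1 (0.51 ± 0.13), Gabpb1 (0.76 ± 0.18) and Esrra (0.61 ± 0.15) were called higher, and with total counts alone they gave 0.25, 0.50 and 0.35 and none was called.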

How the data were processed

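Read counts per gene of 12 rat left ventricles, 4 per group by the labels, were used as the authors deposited them, whole numbers without normalization. Per the submitters' processing notes, HISAT2, featureCounts and the rn6 build were used. Their versions, the annotation release and the strand setting are not given in the sources used here. The members and gene lists were chosen with earlier results of these data known.

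Genes were kept by edgeR's filterByExpr (minimum count 10) in edgeR 4.0.16 (R 4.3.3), scaled by TMM and fitted with all 3 groups together by the quasi-likelihood test, p-values being adjusted by Benjamini-Hochberg across every gene in the fit and called below 0.05. SEs are those of the fitted log2 fold changes, and log2 CPM were taken with a prior count of 2. Single members were also compared by two-sided exact permutation tests, whose smallest p with 4 rats against 4 is 0.0286. Described singly were members of at least 5 CPM on average with the 5 lowest or 4 highest log2 fold changes among those called in MI against Sham, the 3 smallest p-values in iCarP+/Light+ against MI, the 3 highest levels per kb in Sham of each subunit, and members with a special role (Mrpl3, Mrpl12, Mrpl44, Mrpl45, Mrps12, Mrps16, Mrps18a, Mrps22, Mrps30, Mrps34, Mrps36). Of each other list at most 3 genes were named, by the size of the change among those called, besides Ppargc1a, Nrf1, Gabpa, Tfam, Polrmt and Myc. Mrpl1, Mrpl30, Mrpl46, Mrps6, Noa1 and Mtif3 were named after their values were seen. The fit was tested on simulated counts. Depth was 14064414 to 17136958 counts per rat. No pair of rats agreed within sampling noise, and the labels give no processing batch. Same replicate numbers did not pair rats. Alternatives were other scalings, DESeq2 1.42.0, limma-voom (limma 3.58.1), other filters, only the rats of the 2 groups compared, a replicate block and each rat left out in turn. Promoters came from RefSeq.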

Additional observations from a re-analysis of the deposited data

Results flagged for a closer look

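Mrpl43 in MI 4 stood at 46.7 CPM, apart from the other MI rats at 34.4 to 34.9 CPM. Its gap to the nearest of them was 0.95 of the group's whole range on the log2 CPM scale, above Dixon's 95% critical value for 4 rats. It was 1 of 75 groups of values looked at, where chance gives about 1 in 20 (3.75). MI 4 was also the highest MI rat in 64 of the 73 members.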

How the results depend on the processing

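All settings were set out with earlier results of these data known, and the cause of the changes below was not tested. Scaling by total counts only changed most: in MI against Sham 30 members were lower and 9 higher, with medians of -0.38 (large) and -0.0419 (small). In iCarP+/Light+ against MI it gave 33 calls, 32 lower, with medians of -0.43 and -0.42, and in iCarP+/Light+ against Sham 45 lower (63 as reported) and 2 higher, with -0.63 and -0.50. Negative values went from 71 to 44 members in MI against Sham and from 59 to 71 in iCarP+/Light+ against MI. Among the members described singly it reversed Mrpl43 (0.23), Mrpl27 (0.22), Mrps12 (0.20), Mrps11 (0.28), Mrpl17 (0.48), Mrps34 (0.0319) and Mrps18a (0.0602) in MI against Sham, and Mrpl52 (-0.19), Mrpl33 (-0.10) and Mrps16 (-0.23) in iCarP+/Light+ against MI.

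In iCarP+/Light+ against MI, DESeq2 called 3 members (2 lower), and DESeq2's size factors in edgeR or at least 10 counts in every rat called 2 (1 lower). Mrps16, 0.02 as reported, was -0.0308 with DESeq2's size factors, -0.0306 with DESeq2, -0.0396 with 10 counts in every rat, -0.0205 without mitochondrial genes and -0.0198 with only the 2 groups' rats. With only the 2 groups' rats, Mrpl17 was 0.0478 in MI against Sham and 2 members were higher in iCarP+/Light+ against Sham. In MI against Sham the other settings gave 49 to 57 members lower.

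The replicate numbers did not pair the rats: same-numbered rats correlated at -0.15 to 0.07. With the replicate number as a block, 57 members were lower in MI against Sham and 65 in iCarP+/Light+ against Sham, and 0 were called, 0 of them higher, in iCarP+/Light+ against MI (Mrpl45 0.59, adjusted p = 0.059, edgeR; Mrps16 -0.0268).

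Leaving out each rat in turn gave 50 to 62 calls in MI against Sham (49 to 61 lower, 0 to 1 higher, with 0 higher without Sham 3 or Sham 5). In iCarP+/Light+ against MI it gave 1 to 4 calls, 0 to 3 lower (3 without MI 5 or iCarP+/Light+ 1) and 1 to 2 higher (2 without MI 4, with Mrps6 at 0.55). In iCarP+/Light+ against Sham it gave 57 to 64 lower and 1 to 2 higher (2 without MI 4, iCarP+/Light+ 1 or iCarP+/Light+ 2). The medians ran from -1.08 to -0.85 (large) and -0.69 to -0.52 (small) in MI against Sham, and from -0.24 to -0.06 and -0.28 to -0.09 in iCarP+/Light+ against MI. Mrpl17 ran from -0.23 to 0.0264 in MI against Sham, and in iCarP+/Light+ against MI Mrps36 ran from -0.33 to 0.0162, Mrpl52 from -0.0325 to 0.12, Mrps22 from -0.0770 to 0.0497 and Mrps16 from -0.11 to 0.18.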
